A study of Mus musculus with 6 samples.

Results

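Hepatitis induced by concanavalin A (ConA) was set against vehicle in 4 of the study's 6 small RNA libraries, 2 labelled ConA+Vehicle and 2 labelled Vehicle, which are the libraries that differ by ConA alone. All 1960 mouse miRNAs of the deposited count table were included. The mice were wildtype C57BL/6J females of 10 weeks, and the RNA came from cells freed from liver by enzymatic and mechanical dissociation, labelled as liver immune cells. Vehicle mice were given DMSO in corn oil and no ConA. ConA+Vehicle mice were given the same vehicle and ConA at 12.5 mg/kg into the retro-orbital sinus. The labels call the libraries of a group biological replicates; the sources used here give neither the mice behind each library nor the hour of collection, so p-values measure the spread between these libraries, which may be technical. The other 2 libraries, labelled ConA+D8THC, came from mice given ConA and Δ8-THC. They entered the filter on low counts, the scaling and the estimate of that spread, but not the difference between the groups.

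ConA, a lectin of the jack bean, stimulates T cells and causes in mice an acute hepatitis in which lymphocytes, macrophages and recruited neutrophils take part and in which sinusoidal endothelium and hepatocytes are injured. A miRNA is cut from a hairpin precursor as a duplex of a 5p and a 3p arm; usually 1 arm is loaded into an Argonaute protein and the other is degraded. Bases 2 to 8 of the loaded arm, the seed, pair with target mRNAs, so that miRNAs with the same seed are treated as a family. Several miRNAs are made mainly in 1 cell lineage, such as miR-223 in neutrophils and other myeloid cells, miR-142a in blood cells, miR-126a in endothelium and miR-122 in hepatocytes.

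The mature sequences below are those that the results turn on, from RefSeq for GRCm38.p6, in lower case with the seed in capitals. The first set holds myeloid miR-223-3p and inducible miRNAs of immune activation and hypoxia. Among the latter are miR-146a-5p and miR-146b-5p, which share a seed but of which only miR-146b-5p was called.
miR-223-3p: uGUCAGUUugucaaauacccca
miR-155-5p: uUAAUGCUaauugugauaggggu
miR-21a-5p: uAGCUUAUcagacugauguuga
miR-21a-3p: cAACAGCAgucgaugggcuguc
miR-146a-5p: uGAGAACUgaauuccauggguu
miR-146b-5p: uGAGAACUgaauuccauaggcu
miR-210-3p: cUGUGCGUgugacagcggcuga
The second set holds mature arms of 3 related clusters with 4 seeds, miR-17-92, miR-106a-363 and miR-106b-25, shown because members of each cluster rose.
miR-17-5p: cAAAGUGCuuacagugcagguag
miR-20a-5p: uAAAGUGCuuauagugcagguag
miR-20b-5p: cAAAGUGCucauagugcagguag
miR-93-5p: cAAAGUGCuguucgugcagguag
miR-106a-5p: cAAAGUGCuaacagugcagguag
miR-106b-5p: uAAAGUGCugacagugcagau
miR-18a-5p: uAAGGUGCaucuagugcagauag
miR-18b-5p: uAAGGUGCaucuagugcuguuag
miR-19a-3p: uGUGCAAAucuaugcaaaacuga
miR-19b-3p: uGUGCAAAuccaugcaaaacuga
miR-92a-3p: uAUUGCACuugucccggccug
miR-25-3p: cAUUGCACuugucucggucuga
miR-363-3p: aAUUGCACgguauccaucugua
The third set holds miRNAs that fell, among them 2 families of which every tested member fell, the 3 with seed ACCCGUA and the 3 with seed CCCUGAG.
miR-126a-3p: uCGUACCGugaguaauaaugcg
miR-139-5p: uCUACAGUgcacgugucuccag
miR-511-3p: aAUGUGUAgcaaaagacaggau
miR-10a-5p: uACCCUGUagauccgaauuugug
miR-10b-5p: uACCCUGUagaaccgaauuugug
miR-99a-5p: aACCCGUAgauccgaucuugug
miR-99b-5p: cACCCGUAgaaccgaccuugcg
miR-100-5p: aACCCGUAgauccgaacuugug
miR-125a-5p: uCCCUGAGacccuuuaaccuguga
miR-125b-5p: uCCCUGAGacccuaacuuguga
miR-351-5p: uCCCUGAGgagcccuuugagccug
The last set comes from families whose members with 1 seed were not all called, let-7, miR-15 with miR-16, and miR-30.
let-7a-5p: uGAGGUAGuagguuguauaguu
let-7b-5p: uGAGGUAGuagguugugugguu
let-7c-5p: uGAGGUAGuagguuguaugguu
let-7d-5p: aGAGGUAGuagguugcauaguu
let-7e-5p: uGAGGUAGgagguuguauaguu
let-7f-5p: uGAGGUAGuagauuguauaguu
miR-15b-5p: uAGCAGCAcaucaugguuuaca
miR-16-5p: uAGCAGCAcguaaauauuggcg
miR-195a-5p: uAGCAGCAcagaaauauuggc
miR-497a-5p: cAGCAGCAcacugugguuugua
miR-30a-5p: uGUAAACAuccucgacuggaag
miR-30c-5p: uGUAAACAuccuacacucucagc
Many of these differ by few bases outside the seed. The pairs miR-106a-5p and miR-17-5p, miR-19a-3p and miR-19b-3p, miR-10a-5p and miR-10b-5p, and miR-99a-5p and miR-100-5p differ at 1 position each, and miR-20a-5p and miR-20b-5p, miR-18a-5p and miR-18b-5p, and miR-146a-5p and miR-146b-5p at 2. Reads with an error can be counted for the wrong member of such a pair, so values within a pair are not fully independent.

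Of the 713 miRNAs with a count in any of the 4 libraries, 297 passed the filter on low counts, run on all 6 libraries, and were tested. With the 4 libraries alone, 266 passed it. ConA+Vehicle differed from Vehicle in 109 of the 297 (36.7%), at an adjusted p under 0.05 in edgeR's quasi-likelihood test, which gave every adjusted p below unless another setting is named. Of these, 59 (19.9%) were higher and 50 (16.8%) lower, and the remaining 188 were not called. Without ConA+Vehicle replicate 1, 67 were called (40 higher, 27 lower), and without ConA+Vehicle replicate 2, 89 (57 higher, 32 lower). Groups were separate, with no overlap between libraries, for 200 of the 297 (67.3%), among them all 109 called. The median log2 fold change over the 297 was 0.10. Among the calls, 23 were at least 4-fold higher and 9 at least 4-fold lower, 30 in each direction were between 2-fold and 4-fold, and 17 were under 2-fold. The median change of the called miRNAs was 3.35-fold in the higher direction and 2.44-fold in the lower direction. Calls reached into the abundant miRNAs: of the 63 with a mean of at least 1000 CPM (counts scaled to a common library size, with TMM factors), 18 were higher and 19 lower, and of the 18 with at least 10000 CPM, 4 were higher and 4 lower.

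**Figure D1:**
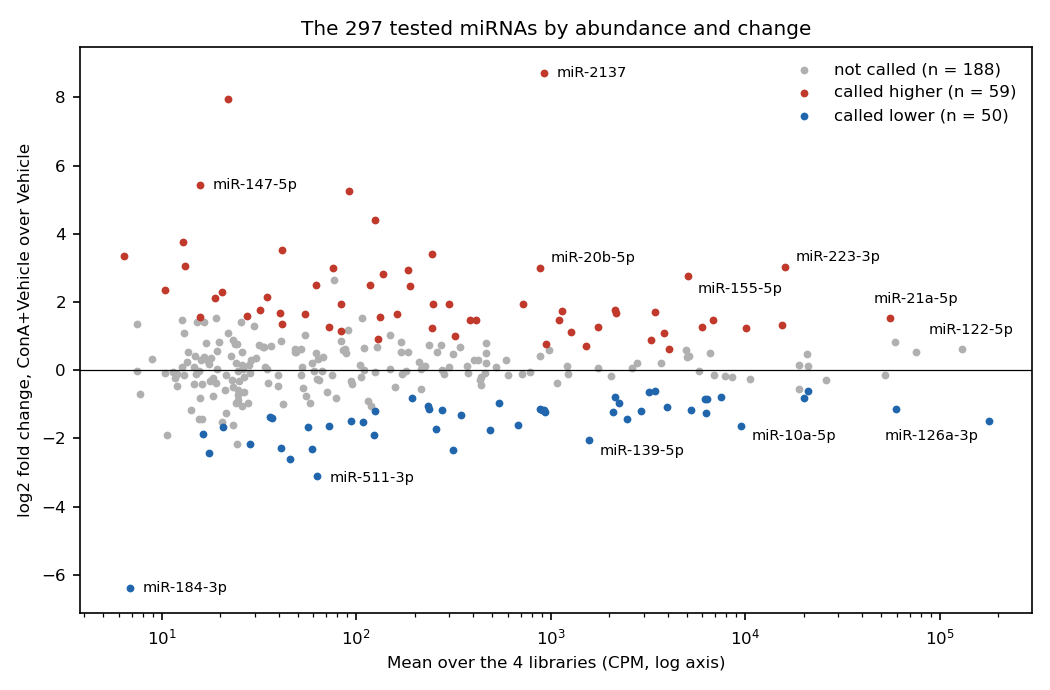
Each of the 297 tested miRNAs by its mean over the 4 libraries in CPM (log axis) and its fitted log2 fold change in ConA+Vehicle over Vehicle, coloured by call at an adjusted p under 0.05. The 59 higher calls reach larger changes than the 50 lower ones, and miR-126a-3p, the most abundant miRNA by this mean, lies among the lower; miR-184-3p had no count in ConA+Vehicle and miR-6236 none in Vehicle, so their fitted changes are not measured folds.

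In each library a few miRNAs held most counts, the 10 most abundant taking 68.7% and 70.2% in Vehicle and 64.3% and 66.8% in ConA+Vehicle. In every sentence of this kind the values stand in the order replicate 1, replicate 2. The 59 called higher took together 8.65% and 5.61% of the counts in Vehicle and 22.4% and 21.7% in ConA+Vehicle. The 50 called lower took 46.4% and 49.8% in Vehicle and 20.8% and 20.6% in ConA+Vehicle. The 2 arms of miR-126a made up most of the latter; the other 48 took 13.7% and 15.6% against 8.0% and 7.44%. With the counts of both miR-126a arms left out before scaling, the median log2 fold change over all tested moved from 0.10 to -0.07, and 51 were called higher and 52 lower.

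Library totals were 753887 and 1172389 counts in Vehicle and 381274 and 322764 in ConA+Vehicle, so that the Vehicle libraries were deeper and 3 counts stand for between 2.56 and 9.29 CPM. Markers of several cell types were present in each library, with exact binomial 95% intervals that cover counting error only. The blood cell pair miR-142a took 7.31% (7.25 to 7.36) and 2.53% (2.50 to 2.56) in Vehicle and 10.3% (10.2 to 10.4) and 9.03% (8.93 to 9.13) in ConA+Vehicle, with Vehicle replicate 2 below the other 3 libraries. The endothelial pair miR-126a took 32.7% (32.6 to 32.8) and 34.2% (34.1 to 34.3) in Vehicle and 12.8% (12.7 to 12.9) and 13.2% (13.1 to 13.3) in ConA+Vehicle, so that endothelial miRNA was abundant in libraries labelled as immune cells. Hepatocyte markers took 8.35% (8.29 to 8.42) and 13.9% (13.8 to 14) in Vehicle and 17.1% (17 to 17.2) and 19.8% (19.6 to 19.9) in ConA+Vehicle. Stellate cell and fibroblast markers took 1.29% and 1.32% in Vehicle and 1.30% and 0.742% in ConA+Vehicle, bile duct markers 0.429% and 0.472% in Vehicle and 0.485% and 0.428% in ConA+Vehicle, and erythroid markers 0.103% and 0.0434% in Vehicle and 0.180% and 0.0858% in ConA+Vehicle. Markers of muscle, neuron and pancreas each took under 0.1% in every library. A single share compared between groups of 2 cannot reach an exact two-sided permutation p below 0.333, and these shares were not tested. In such bulk RNA, fewer cells of a type and less of its miRNA per cell cannot be told apart, and the part of these shares in the changes that follow was not tested.

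**Figure D2:**
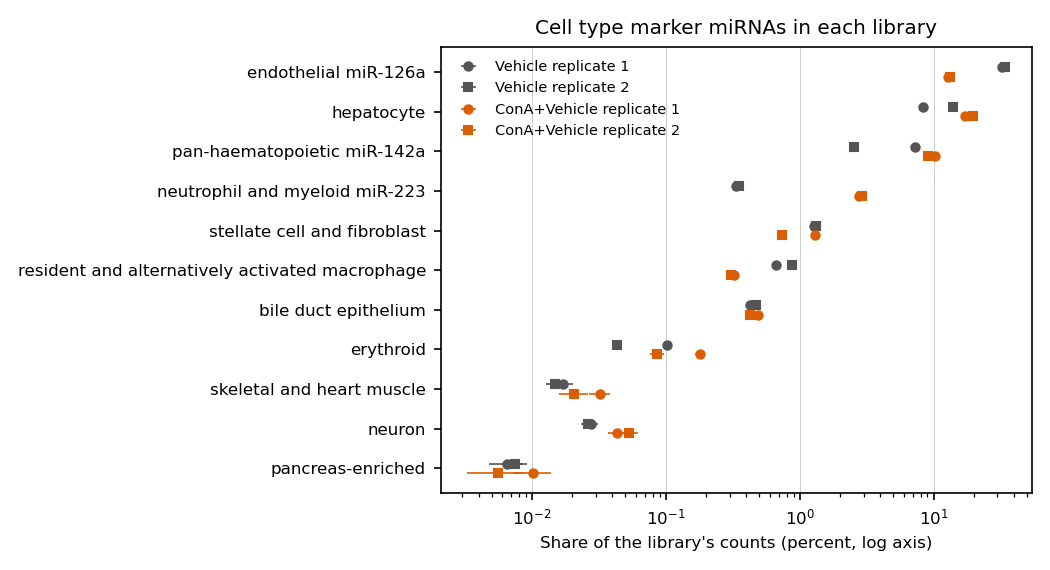
Share of each library's counts (percent, log axis) taken by marker miRNAs of each cell type; grey points are Vehicle and orange points ConA+Vehicle, circles replicate 1 and squares replicate 2, and bars exact binomial 95% intervals. The miR-126a pair falls from 32.7% and 34.2% to 12.8% and 13.2%, and miR-223 rises from 0.333% and 0.353% to 2.75% and 2.91%.

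Both arms of myeloid miR-223 rose, and so did 7 of the 11 tested miRNAs on the inflammation-induced list. The 7 include both arms of miR-21a and of miR-147. Over all 297 tested, 19.9% were called higher and 16.8% lower, and these shares stand beside each list count below. The lists were chosen with earlier results of these data known. Of the 63 tested miRNAs with a mean of at least 1000 CPM, the 2 largest rises were those of miR-223-3p and miR-155-5p. miR-223-3p, which restrains neutrophil activation, was at 3433 and 3591 CPM in Vehicle and 26079 and 30971 CPM in ConA+Vehicle, and its lowest ConA+Vehicle value was far above both Vehicle values. It rose 8.12-fold (log2 3.02 ± 0.25, the error here and below being the standard error of the fit, adjusted p = 4.43e-05). Its other arm, miR-223-5p, rose 3.86-fold from 27.6 and 39.4 to 99.7 and 165 CPM. miR-155-5p, induced in activated lymphocytes and macrophages, had 1511 and 1091 CPM in Vehicle and 9125 and 8489 CPM in ConA+Vehicle. The groups were well apart and the rise was 6.77-fold (log2 2.76 ± 0.25, adjusted p = 5.32e-05). The opposite arm miR-155-3p had too few counts for the test, 0 in both Vehicle libraries against 6 and 3 in ConA+Vehicle. With 3 counts over both Vehicle libraries as the floor, its ratio to that floor was 8.21, with counting error not included.

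miR-21a, an abundant miRNA of stressed and activated cells from a hairpin in an exon of Vmp1 (chr11:86584067-86584158, minus strand), rose on both arms. miR-21a-5p had 40343 and 16407 CPM in Vehicle and 79048 and 85678 CPM in ConA+Vehicle, with both ConA+Vehicle values above both Vehicle values and a wider gap within Vehicle. The rise was 2.90-fold (log2 1.54 ± 0.38, adjusted p = 0.0123), and log2 2.31 without Vehicle replicate 1. The rarer miR-21a-3p rose 7.74-fold, from 55.2 and 30.7 to 352 and 301 CPM (adjusted p = 0.000348). miR-147, induced by Toll-like receptor signals in macrophages, was nearly absent without ConA. miR-147-3p went from 8.28 and 5.26 to 87.3 and 66.2 CPM, a rise of 11.6-fold (adjusted p = 0.000418). For miR-147-5p, 1 count in the Vehicle libraries together stood against 22 in ConA+Vehicle, a ratio of 58.4 with a counting interval of 9.43 to 2408 (adjusted p = 0.000606).

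The miR-146 pair, feedback inhibitors of Toll-like receptor and NF-kappaB signalling, were called differently. miR-146b-5p, from an intron of Mfsd13a (chr19:46342762-46342870, plus strand), had 360.2 and 242 CPM in Vehicle and 1007 and 1284 CPM in ConA+Vehicle and rose 3.81-fold (log2 1.93 ± 0.27, adjusted p = 0.000418). miR-146a-5p, from chromosome 11 (chr11:43374397-43374461, minus strand), had 24685 and 20168 CPM in Vehicle and 13526 and 17124 CPM in ConA+Vehicle. These groups too did not overlap, with ConA+Vehicle the lower, but the difference did not pass (log2 -0.55 ± 0.23, adjusted p = 0.0856); it was called lower in 4 of 15 refits with other settings or a library left out. The 2 differ at 2 bases, and miR-146a-5p was the more abundant in each library, by a smaller margin in ConA+Vehicle than in Vehicle. Of the 11 tested miRNAs of the inflammation-induced list, 7 rose, 0 fell and 4 did not pass, with a median log2 of 1.57 beside 0.10 for all tested. Besides those above, the list's seventh rise was miR-9-5p, an NF-kappaB-induced miRNA of myeloid cells, at 6.90 and 8.77 to 27.4 and 19.9 CPM; its call (adjusted p = 0.0353) ended on leaving out any of the 4 libraries, with adjusted p-values of 0.0914, 0.0693, 0.260 and 0.0626. The CREB-regulated miR-132-3p, at 179 and 207 CPM in Vehicle and 224 and 232 CPM in ConA+Vehicle, was not called (adjusted p = 0.549).

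The miR-17-92 cluster and its paralogs, which promote proliferation of lymphocytes and other dividing cells, rose in all 3 genomic copies. Of the 8 tested miRNAs of miR-17-92, in exons of Mir17hg (its first hairpin Mir17 at chr14:115043671-115043754, plus strand), 8 rose, with a median log2 of 1.71. Since miR-19b-3p and miR-92a-3p also have a hairpin in miR-106a-363, the counts do not tell their sources apart. Of the 4 that belong to miR-106a-363 alone, on the X chromosome (Mir20b at chrX:52742113-52742192, minus strand), 4 rose, with a median of 2.75. Of the 6 of miR-106b-25, within the replication gene Mcm7 (Mir93 at chr5:138165523-138165610, minus strand), 4 rose and 2 did not pass, with a median of 1.18. Without ConA+Vehicle replicate 1 these counts were 5, 4 and 2. The calls that ended were those of miR-17-3p (adjusted p = 0.0773), miR-19a-3p (0.0502), miR-92a-1-5p (0.244), miR-106b-3p (0.0596) and miR-25-5p (0.0912). The call of miR-106b-3p also ended with DESeq2 (adjusted p = 0.0726), without Vehicle replicate 2 (0.100) and without ConA+Vehicle replicate 2 (0.0606), and that of miR-92a-1-5p with DESeq2 (0.0653).

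Read by seed, the AAAGUGC family, which targets inhibitors of the cell cycle, had 5 of its 6 tested members higher, and these 5 were called in every refit. miR-93-5p was the most abundant, with 4061 and 2963 CPM in Vehicle and 8594 and 8320.2 CPM in ConA+Vehicle, and rose 2.41-fold (adjusted p = 0.00200). miR-20a-5p had 1384 and 685 CPM in Vehicle and 4099 and 2489 CPM in ConA+Vehicle and rose 3.19-fold (adjusted p = 0.00941). miR-20b-5p changed more than either, 7.98-fold from 225 and 169 to 1683 and 1453 CPM (adjusted p = 6.14e-05). The 2 groups were far apart for miR-20b-5p, whereas on a log scale those of miR-20a-5p were separate by less than the gap between its Vehicle replicates. miR-17-5p rose 2.78-fold from 217 and 191 to 621 and 509.7 CPM, and miR-106a-5p, 1 base different from it, rose 5.51-fold from 62.1 and 54.3 to 394 and 245 CPM. The member that did not change detectably was miR-106b-5p, at 74.5 and 48.2 CPM in Vehicle and 72.3 and 46.3 CPM in ConA+Vehicle (log2 -0.02 ± 0.41), although its cluster neighbours miR-93-5p and miR-25-3p rose. Its groups overlapped.

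Members of the clusters with other seeds rose as well. In the miR-18 pair, miR-18a-5p rose 5.61-fold from 42.8 and 28.9 to 222 and 175 CPM, and miR-18b-5p rose 8.0-fold from 27.6 and 7.89 to 139.6 and 129 CPM; the latter was at log2 4.04 without Vehicle replicate 1 and 2.29 without Vehicle replicate 2. In the miR-19 pair, miR-19b-3p had 1245 and 699 CPM in Vehicle and 3797 and 2849.5 CPM in ConA+Vehicle and rose 3.43-fold (adjusted p = 0.00134). miR-19a-3p went from 184 and 67.5 to 551 and 394 CPM and was at log2 1.93, or 2.79 without Vehicle replicate 1. Of the 4 tested with seed AUUGCAC, 3 rose. miR-92a-3p rose 3.35-fold from 546 and 501 to 1808 and 1698 CPM, with its replicates close together. miR-25-3p rose 2.13-fold from 2753 and 2147 to 5370.4 and 5087 CPM. miR-363-3p rose 5.70-fold from 27.6 and 10.5 to 99.7 and 109 CPM, at log2 3.27 without Vehicle replicate 1 and 1.92 without Vehicle replicate 2. The fourth, miR-32-5p, which lies outside these clusters, had 159 and 41.2 CPM in Vehicle and 147 and 165 CPM in ConA+Vehicle, so that its groups overlapped (adjusted p = 0.391).

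miR-210-3p, the miRNA most closely tied to hypoxia and also induced in activated T cells, had 44.2 and 25.4 CPM in Vehicle and 242 and 238 CPM in ConA+Vehicle. The ConA+Vehicle values were nearly equal and both well above Vehicle, a rise of 7.01-fold (log2 2.81 ± 0.37, adjusted p = 0.000379). Over all 297 tested, 19.9% were called higher, at a median log2 of 0.10. Of 9 tested miRNAs of the T cell activation list, to which miR-210-3p belongs, 2 rose, a share near that of all tested. On this list 0 fell and 7 did not pass, with a median log2 of 0.76. The second to rise was miR-221-3p, 1.69-fold higher, whose call (adjusted p = 0.0217) ended without Vehicle replicate 2 (0.0532) and with either ConA+Vehicle library left out (0.195 for replicate 1 and 0.0505 for replicate 2). miR-182-5p, which is induced by interleukin-2 in helper T cells, had 44.2 and 91.2 CPM in Vehicle and 97.2 and 109 CPM in ConA+Vehicle and was not called (log2 0.58 ± 0.39). Of 12 tested miRNAs of resting lymphocytes, 2 rose, 1 fell and 9 did not pass, at a median of 0.11; these 3 calls, miR-342-3p, miR-29c-3p and miR-26a-5p, were each under 2-fold and all ended without Vehicle replicate 2, without ConA+Vehicle replicate 1 or without ConA+Vehicle replicate 2. The mature lymphocyte miRNA miR-150-5p had 6694 and 4192 CPM in Vehicle and 8539 and 6798 CPM in ConA+Vehicle, higher in each ConA+Vehicle library, but it was not called (log2 0.50 ± 0.29, adjusted p = 0.216).

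Some rises lay outside every list and were picked out after their values were seen, each being called in all 15 refits. miR-7a-5p, made from hairpins that include Mir7-1 in an intron of Hnrnpk, had 1864 and 1338 CPM in Vehicle and 5106 and 5381 CPM in ConA+Vehicle and rose 3.28-fold (adjusted p = 0.000379). miR-101b-3p, which targets the histone methyltransferase Ezh2, rose 2.76-fold from 686 and 488 to 1371 and 1867 CPM. miR-196b-5p, from the Hoxa locus and known from haematopoietic progenitors, rose 3.15-fold from 33.1 and 20.2 to 82.3 and 82.7 CPM. The groups of these 3 did not overlap, which held for all 109 called miRNAs. miR-135a-5p was rare, with 3 counts in Vehicle against 17 in ConA+Vehicle, a ratio of 15.0 with a counting interval of 4.35 to 80.1.

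**Figure D3:**
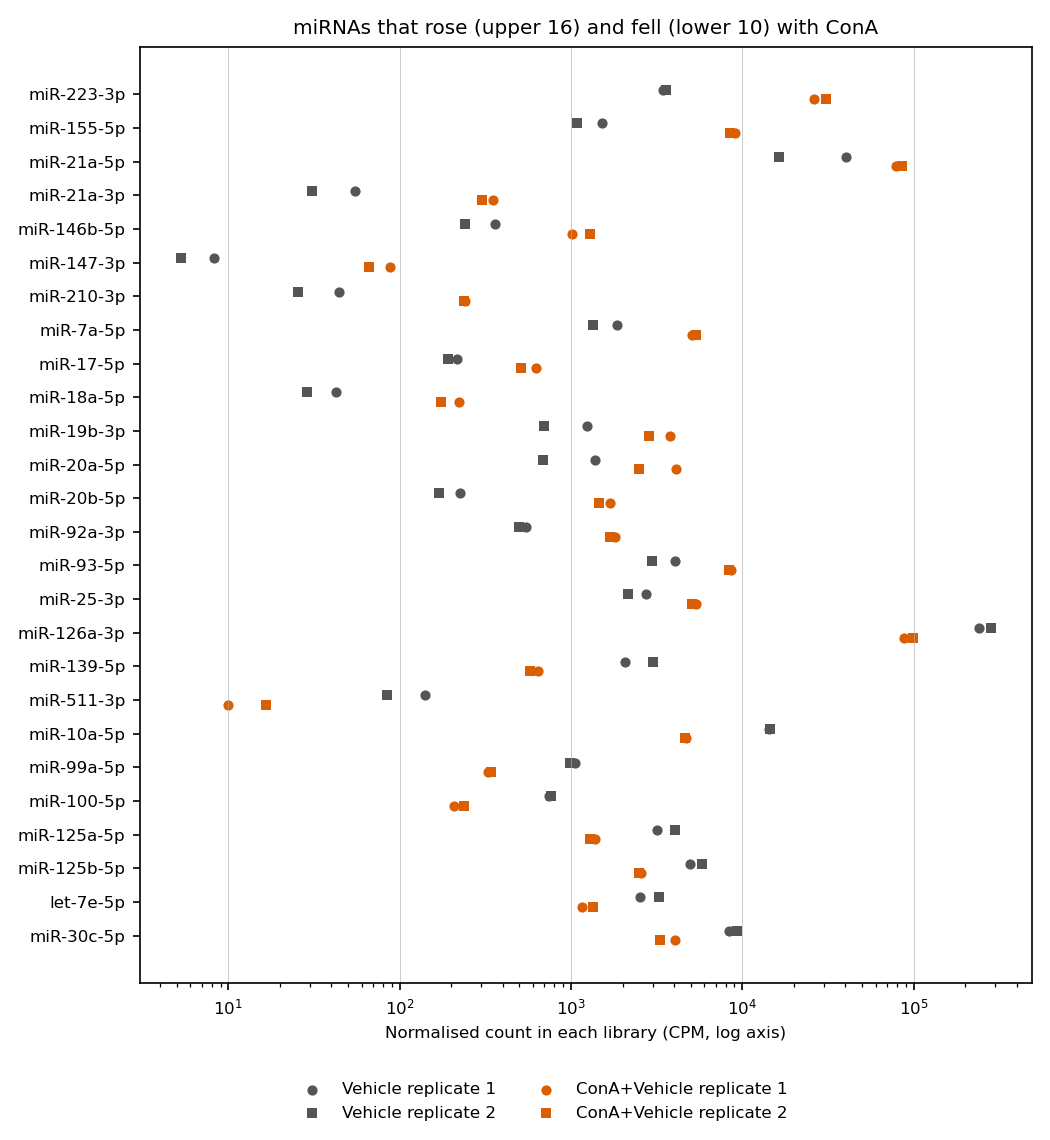
Normalised counts (CPM, log axis) of 26 miRNAs in each of the 4 libraries, grey for Vehicle and orange for ConA+Vehicle, circles for replicate 1 and squares for replicate 2. For each of the 26, as for all 109 called miRNAs, the groups do not overlap. The upper 16 are higher and the lower 10 lower in ConA+Vehicle.

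The endothelial pair miR-126a fell (2 of 2 tested, median log2 -1.31), and both arms of miR-511, a miRNA of resident macrophages, were called lower. miR-126a-3p, which supports vascular endothelial growth factor signalling and lies in Egfl7, had 242143 and 284893 CPM in Vehicle and 88096 and 99485 CPM in ConA+Vehicle. Each ConA+Vehicle library was below both Vehicle libraries, and the fall was 2.81-fold (log2 -1.49 ± 0.24, adjusted p = 0.000921). miR-126a-5p was 2.20-fold lower, from 98011 and 66274 to 33247 and 41551 CPM, and was no longer called without ConA+Vehicle replicate 1 (adjusted p = 0.0547). miR-139-5p, from an intron of the phosphodiesterase gene Pde2a (chr7:101475376-101475443, plus strand), had 2075 and 2994 CPM in Vehicle and 641 and 576 CPM in ConA+Vehicle and fell 4.16-fold (log2 -2.06 ± 0.25, adjusted p = 0.000348). The replicates of a group were close and the groups well apart. miR-511-3p, whose hairpin lies within the mannose receptor gene Mrc1 of tissue macrophages, fell 8.55-fold, with 141 and 84.2 CPM in Vehicle and 9.97 and 16.5 CPM in ConA+Vehicle (adjusted p = 0.000638). It had the largest fall among tested miRNAs counted in both groups. The arm miR-511-5p was 3.69-fold lower from 19.3 and 32.4 to 9.97 and 3.31 CPM; its call (adjusted p = 0.0472) ended without Vehicle replicate 2 (0.181) and with either ConA+Vehicle library left out (0.0627 for replicate 1 and 0.199 for replicate 2).

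The macrophage list holds, besides miR-511, the cluster of miR-99b, let-7e and miR-125a, known to be induced in alternatively activated macrophages. Of its 7 tested miRNAs, 6 fell, 0 rose and 1 did not pass, at a median log2 of -1.43. Leaving out Vehicle replicate 2 or any 1 ConA+Vehicle library gave 4 lower in each case. miR-125a-5p, in an exon of Spaca6 (chr17:17830812-17830879, plus strand), had 3160.1 and 4023 CPM in Vehicle and 1379 and 1284 CPM in ConA+Vehicle and fell 2.70-fold (adjusted p = 0.000703). let-7e-5p fell 2.33-fold from 2543 and 3286 to 1162 and 1344 CPM (adjusted p = 0.00211). miR-99b-5p fell 2.24-fold from 1010.1 and 1534 to 504 and 635 CPM, and was not called without ConA+Vehicle replicate 1 (adjusted p = 0.0627). As for all 109 called miRNAs, the groups of these 3 guide arms were separate, here with ConA+Vehicle the lower.

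Related clusters elsewhere in the genome fell as well. The list of miR-10, miR-99a and miR-100 with their cluster neighbours had 7 of 9 tested miRNAs lower, 0 higher and 2 not called, at a median of -1.17. miR-10a-5p, from the Hoxb locus (chr11:96317165-96317274, plus strand), had 14345 and 14453 CPM in Vehicle and 4717 and 4623 CPM in ConA+Vehicle, with almost equal replicates, and fell 3.08-fold (log2 -1.62 ± 0.20, adjusted p = 0.000348). miR-10b-5p, from the Hoxd locus, fell 2.48-fold from 548 and 437 to 204 and 192 CPM. miR-100-5p and miR-125b-5p come from hairpins in introns of 3110039I08Rik on chromosome 9 (Mir100 at chr9:41531425-41531504, plus strand, Mir125b-1 at chr9:41581926-41582002, plus strand). Since miR-125b-5p also has a hairpin beside Mir99a on chromosome 16, the counts do not tell its sources apart. miR-100-5p fell 3.40-fold from 749 and 763 to 207 and 238 CPM and miR-125b-5p fell 2.13-fold from 4976 and 5853 to 2573 and 2502 CPM. miR-99a-5p, beside let-7c-1 in introns of Mir99ahg on chromosome 16 (chr16:77598936-77599000, plus strand), fell 3.06-fold from 1053 and 991 to 327 and 341 CPM (adjusted p = 0.000418). Each of these 5 miRNAs was called in all 15 refits, with separate groups as for all 109 called miRNAs.

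By seed, the 3 tested miRNAs with ACCCGUA, which target the kinase Mtor, fell (miR-99a-5p, miR-99b-5p and miR-100-5p; median log2 -1.61); without ConA+Vehicle replicate 1 there were 2 lower. The 3 with CCCUGAG also fell, at a median of -1.43, and did so in every refit. The third of these, miR-351-5p, from a hairpin on the X chromosome, fell 3.72-fold from 146 and 241 to 57.3 and 46.3 CPM (adjusted p = 0.00308). The hairpins of both families lie on several chromosomes.

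The let-7 family, which restrains growth and promotes differentiation, took 14.4% and 15.2% in Vehicle and 12.1% and 12.9% in ConA+Vehicle and was called in part. Of its 11 tested members 4 fell, 0 rose and 7 did not pass, at a median of -0.16. Called or not, 9 of the 11 had a negative log2 fold change, beside 137 of all 297 tested. Differences between members were not tested. The 4 were let-7e-5p (2.33-fold), let-7c-5p (1.75-fold, from 22395 and 28589.6 to 13339 and 15773 CPM), let-7b-5p (1.71-fold, from 8329 and 10695 to 5166 and 5934 CPM) and let-7d-5p (1.51-fold, from 4049 and 4224 to 2765 and 2697 CPM). Only let-7e-5p was called without Vehicle replicate 2, without ConA+Vehicle replicate 1 or without ConA+Vehicle replicate 2. The call of let-7d-5p held in 6 of 15 refits, and it also ended with upper-quartile scaling, library totals, no filter, the 4 libraries alone, without fragment-like entries or without ConA+D8THC replicate 2. let-7c-5p, which can come from the miR-99a cluster or from beside let-7b in Lncppara on chromosome 15, had an adjusted p of 0.0185, and of 0.0787, 0.164 and 0.0839 without those libraries in turn. The most abundant member, let-7f-5p, had 57125 and 52873 CPM in Vehicle and 42647 and 57758 CPM in ConA+Vehicle, with overlapping groups (log2 -0.13 ± 0.23). let-7a-5p, 1 base different from let-7c-5p, had 27547 and 29859.8 CPM in Vehicle and 22409 and 24501 CPM in ConA+Vehicle; its groups did not overlap, but it was not called (log2 -0.29 ± 0.20, adjusted p = 0.293).

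The seed AGCAGCA of miR-15 and miR-16, which target Bcl2 and cyclins, was called in part too. Of 6 tested members 2 fell, 0 rose and 4 did not pass, with a median of 0.00. miR-195a-5p fell 1.94-fold from 678 and 759 to 371 and 367 CPM and its cluster neighbour miR-497a-5p fell 2.20-fold from 305 and 343 to 142 and 152 CPM. Both calls ended without ConA+Vehicle replicate 1 (adjusted p = 0.0727 and 0.0725), and that of miR-195a-5p also without ConA+Vehicle replicate 2 (0.0732). miR-16-5p, far more abundant, had 58375 and 65155 CPM in Vehicle and 84301 and 95123 CPM in ConA+Vehicle; its ConA+Vehicle values were the higher, but the difference did not pass (log2 0.54 ± 0.21, adjusted p = 0.0705). The miR-30 family had 2 of 5 tested members lower and 3 not called, at a median of -0.19. miR-30c-5p fell 2.40-fold from 8354 and 9279.7 to 4064 and 3296 CPM (adjusted p = 0.000935) and miR-30b-5p fell 2.29-fold from 4405 and 3702 to 1825 and 1708 CPM (adjusted p = 0.00134). miR-30a-5p, with 9323 and 8944 CPM in Vehicle and 7462 and 8555 CPM in ConA+Vehicle, changed by less than its error (log2 -0.19 ± 0.22).

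The clusters of miR-23, miR-27 and miR-24, present in 2 copies, had 4 of 6 tested miRNAs lower, each under 2-fold, at a median of -0.74. miR-23b-3p fell 1.95-fold from 2545 and 3413 to 1648 and 1399.9 CPM, miR-24-3p 1.81-fold, miR-23a-3p 1.81-fold and miR-27a-3p 1.54-fold. None of the 4 remained called without ConA+Vehicle replicate 2 (adjusted p = 0.0999, 0.130, 0.134 and 0.275 in the same order), and miR-23b-3p alone remained without ConA+Vehicle replicate 1. Of the falls of more than 4-fold, miR-331-3p, in an exon of Vezt, went from 69 and 87.7 to 12.5 and 13.2 CPM (6.07-fold, adjusted p = 0.000853). Both arms of miR-151 fell: miR-151-5p went from 431 and 622 to 109.7 and 99.3 CPM (5.03-fold) and miR-151-3p from 86.9 and 111 to 19.9 and 19.9 CPM (4.96-fold). These 3 were called in all 15 refits.

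**Figure D4:**
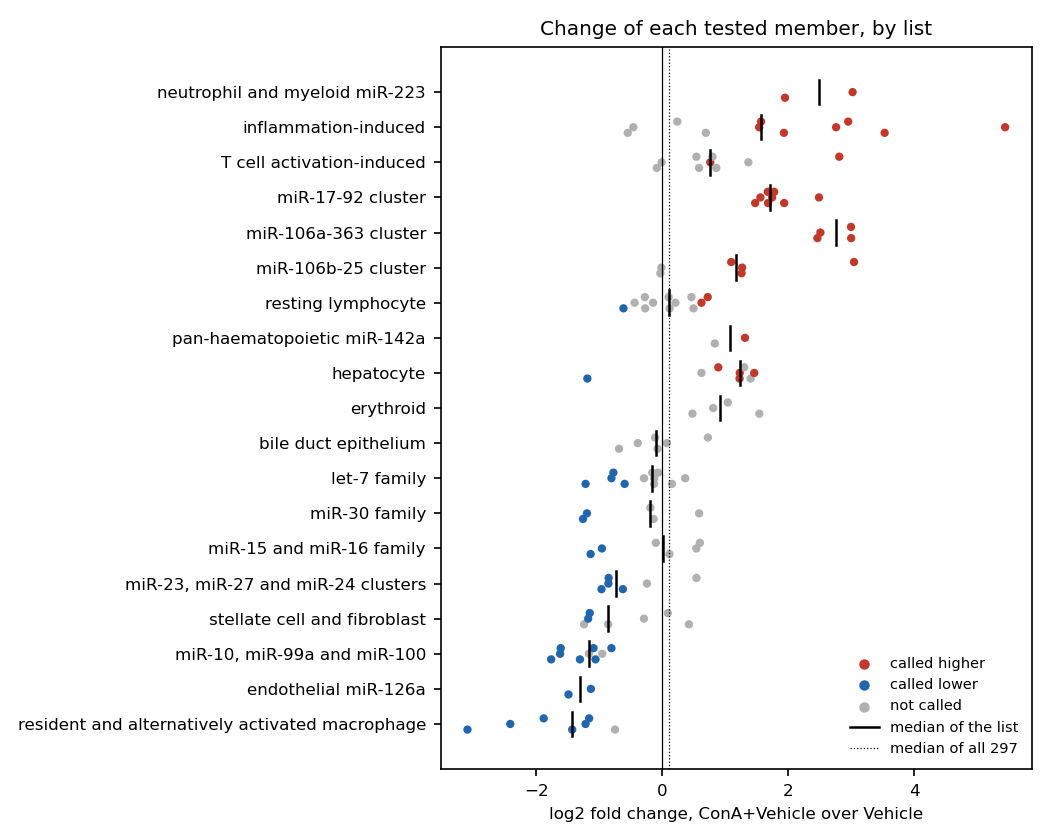
Fitted log2 fold change in ConA+Vehicle over Vehicle of each tested member of 19 lists, coloured by call; the black bar is the list's median and the dotted line the median of all 297. The bars run from 2.75 for the miR-106a-363 cluster to -1.43 for the macrophage list, and the let-7, miR-30 and miR-15 with miR-16 lists hold both called and uncalled members.

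Hepatocyte miRNAs were higher in part. Of 8 tested, 4 rose, 1 fell and 3 did not pass, at a median of 1.23. miR-192-5p had 3032 and 4256 CPM in Vehicle and 8534 and 11514 CPM in ConA+Vehicle and rose 2.75-fold (log2 1.46 ± 0.28, adjusted p = 0.00265), in all 15 refits. Rises were also called for miR-194-5p (1.85-fold), miR-802-5p (2.34-fold) and miR-148a-3p (2.34-fold), but not without Vehicle replicate 1, where 1 of the 8 was called higher; without Vehicle replicate 2 there were 7, and without ConA+Vehicle replicate 2 there were 2. The main hepatocyte miRNA, miR-122-5p, had 76919 and 128134 CPM in Vehicle and 137664 and 177908 CPM in ConA+Vehicle. Its groups did not overlap, but Vehicle replicate 2 lay close to ConA+Vehicle replicate 1 and it was not called (log2 0.62 ± 0.29, adjusted p = 0.124); without Vehicle replicate 2 it was called at log2 1.05 (adjusted p = 0.00618). The opposite arm miR-122-3p fell 2.28-fold from 157 and 189 to 84.8 and 66.2 CPM, and was not called without ConA+Vehicle replicate 1 or without ConA+Vehicle replicate 2 (adjusted p = 0.0596 and 0.143).

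miR-142a-5p rose 2.48-fold from 12175 and 5528 to 22115 and 21853 CPM (adjusted p = 0.0188, log2 1.31), or at log2 1.98 without Vehicle replicate 1. miR-142a-3p, with 63824 and 20468 CPM in Vehicle and 75625 and 74591 CPM in ConA+Vehicle, was low in Vehicle replicate 2 alone and was not called (log2 0.83 ± 0.48), but was at log2 1.86 without Vehicle replicate 1 (adjusted p = 9.27e-06). Of 4 erythroid miRNAs none was called (median 0.92), yet all 4 were higher without Vehicle replicate 1 and 3 without ConA+Vehicle replicate 2; miR-144-3p, for one, had 86.9 and 25.4 CPM in Vehicle and 184 and 132 CPM in ConA+Vehicle. Of 7 stellate cell and fibroblast miRNAs 2 fell, the arms of miR-199a: miR-199a-3p 2.22-fold from 6966 and 7588 to 3052 and 3492 CPM in all 15 refits, and miR-199a-5p 2.26-fold, which was not called without ConA+Vehicle replicate 2 (adjusted p = 0.0551). The count was 4 without ConA+Vehicle replicate 1 and 1 without ConA+Vehicle replicate 2. The smooth muscle and stellate cell miRNA miR-145a-5p had 466 and 494 CPM in Vehicle and 628 and 149 CPM in ConA+Vehicle, with the 2 ConA+Vehicle libraries on either side of Vehicle. None of 6 bile duct miRNAs was called, and miR-200a-3p had 2487 and 2633 CPM in Vehicle and 2513 and 2869 CPM in ConA+Vehicle (log2 0.07 ± 0.25).

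Both arms were tested for 66 hairpins. Both were called in 14, of which 5 were higher on both arms, 8 lower on both and 1 opposite; 1 arm was called in 24 and neither in 28, and the 2 arms had the same sign in 40. Among the 8 lower pairs, that of let-7d was weak, with let-7d-5p and let-7d-3p each called in 6 of 15 refits. The 5 pairs that rose were those of miR-223, miR-21a, miR-147, miR-17 and miR-25. Of these arms, miR-25-5p was rare, with 4 and 1 counts in Vehicle against 12 and 5 in ConA+Vehicle. Its call and that of miR-17-3p ended without ConA+Vehicle replicate 1, as given above. The pairs did not always change by the same amount: miR-21a-5p was at log2 1.54 and miR-21a-3p at 2.95, and let-7b-5p at -0.78 and let-7b-3p at -2.29. In miR-15b the rare arm miR-15b-3p rose 3.15-fold from 93.8 and 62.2 to 237 and 252 CPM (adjusted p = 0.00330), while miR-15b-5p, with 947 and 622 CPM in Vehicle and 1326 and 1039 CPM in ConA+Vehicle, was not called (log2 0.60 ± 0.30). In miR-30a it was likewise the opposite arm miR-30a-3p that was called, 2.20-fold lower from 1009 and 1408 to 494 and 606 CPM, with an adjusted p of 0.00579, or 0.0631 without ConA+Vehicle replicate 1. The opposite pair was miR-503: miR-503-5p, a miRNA of the miR-15 kind that acts on the cell cycle, was 1.88-fold higher from 80 and 98.2 to 162 and 175 CPM, and miR-503-3p 3.11-fold lower from 109 and 110.5 to 39.9 and 29.8 CPM. The call of miR-503-5p held in 8 of 15 refits and ended without Vehicle replicate 1 (adjusted p = 0.126) and without either ConA+Vehicle library (0.101 and 0.163), and that of miR-503-3p ended without ConA+Vehicle replicate 2 (0.0551). The difference between the arms of a hairpin was not tested.

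**Figure D5:**
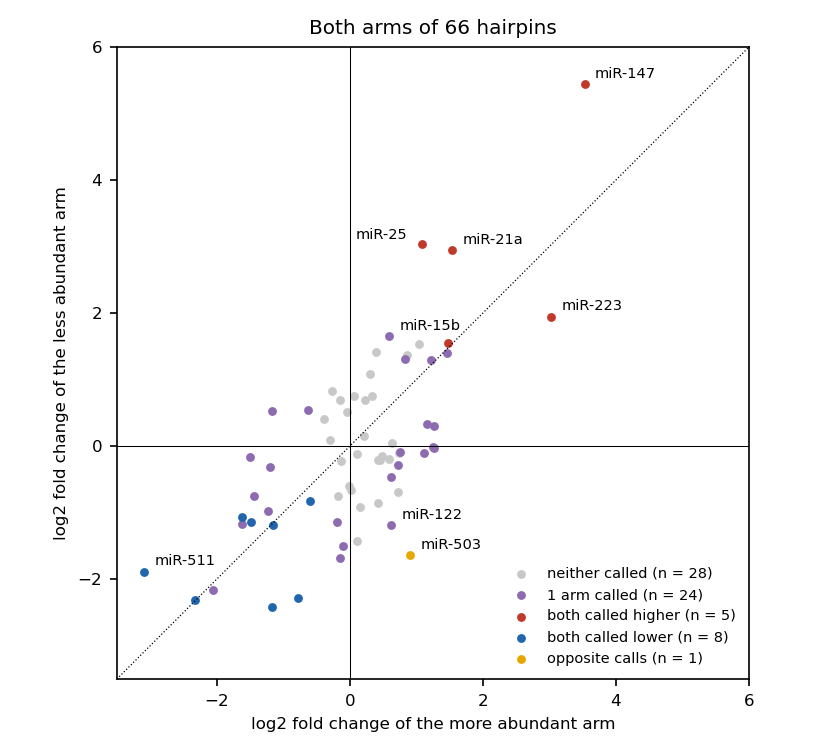
Fitted log2 fold change of the more abundant arm (x) against that of the less abundant arm (y) for the 66 hairpins with both arms tested; the dotted line marks equal change. The 5 pairs called higher lie in the upper right, the 8 called lower in the lower left, and miR-503 is the pair with opposite calls.

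Among the largest rises were entries named as miRNAs from a list of possible fragments of ribosomal, nucleolar or other abundant RNA. Not every listed hairpin overlaps an annotated small RNA, and that of miR-2137 does not. Resemblance to such RNA was not tested. Of 15 tested on that list 8 rose, 0 fell and 7 did not pass, at a median of 1.48, and together the listed entries took 0.105% and 0.0928% in Vehicle and 0.429% and 0.464% in ConA+Vehicle. miR-2137 went from 1.38 and 6.14 to 1646 and 2055 CPM, the largest ratio of any tested miRNA counted in both groups (422-fold, adjusted p = 0.000568), although the call did not survive leaving out Vehicle replicate 1 (adjusted p = 0.0836), Vehicle replicate 2 (0.147) or ConA+Vehicle replicate 2 (0.0594). miR-5121, whose hairpin overlaps the small nucleolar RNA Snord33 in Rpl13a (chr7:45126918-45126991, minus strand), rose 10.6-fold from 46.9 and 37.7 to 454 and 437 CPM (adjusted p = 0.000348). miR-3535, within an exon of the nucleolin gene Ncl, rose 3.88-fold from 106 and 97.3 to 334 and 457 CPM. The groups were far apart for miR-2137, miR-5121 and miR-3535. Overlap with a small RNA did not always go with a rise. The hairpin of miR-1843a-5p overlaps Scarna3b, and this arm was not called (log2 -0.39). For miR-6236, 0 counts in each Vehicle library stood against 14 and 16 in ConA+Vehicle. Its ratio to the same floor of 3 counts over Vehicle was 27.4, again with counting error not included. Whether reads of these entries came from mature miRNAs was not tested.

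Some miRNAs were counted in 1 group only. Counted in both ConA+Vehicle libraries and in neither Vehicle library were 5: miR-6236, miR-155-3p, miR-6239 (5 and 8 counts), miR-547-3p and miR-6399 (1 count in each library). In the other direction there were 41, of which 5 exceeded the floor of 3 counts over the shallower ConA+Vehicle group. Of these, miR-184-3p had 6 and 22 counts, a ratio of 3.41 to that floor with counting error not included. It was called lower (adjusted p = 0.0127), but not without ConA+Vehicle replicate 1. The other 4 were miR-125b-1-3p (6 and 8 counts), miR-744-3p (8 and 6), miR-129-1-3p (6 and 7) and let-7c-1-3p (5 and 6), named after their counts were seen. These 4 had too few counts for the test and lay near the floor, at ratios to it of 1.71, 1.71, 1.58 and 1.34 in that order. The Vehicle libraries were deeper, and for the remaining 36 a difference was not detectable at this depth.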

How the data were processed

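Small RNA libraries from liver immune cells were made with the QIAseq miRNA kit, and the authors deposited raw counts per mature miRNA against mm10 from the QIAGEN GeneGlobe portal, per the labels. For the aligner, the annotation release and any use of molecular identifiers, nothing is given in the sources used here. The values used are these counts for 1960 miRNAs, and no column of per-sample values was left unused. With edgeR 4.0.16 (R 4.3.3), miRNAs were filtered by filterByExpr on the group, libraries scaled by TMM, and a robust quasi-likelihood model was fitted to all 6 libraries with 3 residual degrees of freedom. ConA+Vehicle was tested against Vehicle at a Benjamini-Hochberg adjusted p under 0.05 over all 297 tested. CPM are per effective library size, while shares are of raw totals, with exact binomial 95% intervals from scipy 1.17.1. The code was tested on simulated data. Alternatives used DESeq2 1.42.0, limma 3.58.1 and other scalings, filters and sample sets.

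Named miRNAs were the 15 largest higher and 15 largest lower calls with separate groups (mean CPM 10 or more), tested members of the marker and cluster lists and of seed families with at least 3 tested members, the 10 most abundant in each group, the 10 largest changes of share in each direction, and the other arm of each; of these the text describes a part, and it says where a miRNA lies outside the rule. The members and lists were chosen with earlier results of these data known. Sequences matched by name in RefSeq GRCm38.p6 for 250 of the 297 tested; hairpin coordinates are of that build, which mm10 shares.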

Additional observations from a re-analysis of the deposited data

How the results depend on the processing

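No called miRNA named above changed sign under any of 15 refits. Leaving out 1 library at a time gave from 67 to 129 called, from 40 to 75 higher and from 27 to 54 lower; the lowest values came without ConA+Vehicle replicate 1, and the cause was not tested. DESeq2 called 92, upper-quartile scaling 113, library totals 109, no filter on low counts 106, limma-voom 111, a fit of the 4 libraries alone 120, the table without fragment-like entries 111 and the table without both miR-126a arms 103. The replicate block called 132 (76 higher, 56 lower), with all 109 kept; the numbers are only shared between groups, and the deviations of same-numbered libraries correlated at 0.203. Of the uncalled miRNAs, some near 0 changed sign. With 1 library left out, let-7f-5p ranged from log2 -0.34 to 0.095, miR-106b-5p from -0.36 to 0.30, miR-145a-5p from -1.67 to 0.40, miR-200a-3p from -0.0091 to 0.19 and miR-32-5p from -0.011 to 1.90. miR-106b-5p was also at 0.023 with upper-quartile scaling, 0.038 with library totals, 0.019 with limma-voom and 0.011 without fragment-like entries, and miR-200a-3p at -0.038 with DESeq2 and -0.11 without the miR-126a arms. With 2 libraries a group and shallower ConA+Vehicle libraries, changes of miRNAs under about 10 CPM rest on few counts.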
